A study of Mus musculus with 17 samples.

Results

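The 10 genes described here encode proteins that shape mitochondria and mark damaged ones for removal. They were chosen by symbol: Mfn1, Mfn2 and Opa1 for fusion, Dnm1l, Fis1 and Mff for fission, and Pink1, Bnip3l, Fundc1 and Phb2 for mitophagy. Each of the 10 had 1 row of its own among the 31647 features of the count table, and all 10 were among the 12301 genes with enough counts to be tested. The libraries came from hearts of male wild-type C57BL/6J mice that were 8 to 11 weeks old at surgery. In 9 mice the left anterior descending coronary artery (LAD) was tied off for good, without reperfusion, and the infarct zone (IZ) of the left ventricle was taken 5 days later. The other 8 mice had sham surgery without a ligature, and left ventricular (LV) tissue was taken at the same day. Both groups were labelled as wild-type heart, and no transgene or drug is named for either. RNA was read near the 3′ end of each transcript, and the values are counts of unique molecules per gene, shown as CPM, counts scaled to a common library size, after TMM scaling, which corrects for differences in library composition.

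Mitochondria form a network that is joined and cut all the time. Mitofusins 1 and 2 join the outer membranes of neighbouring mitochondria, and OPA1, a GTPase of the inner membrane, joins the inner membranes and keeps the cristae in shape. Division is carried out by DRP1, the product of Dnm1l, a dynamin that is drawn from the cytosol to adaptors on the outer membrane such as MFF and FIS1. A damaged mitochondrion can be taken up by an autophagosome, a process called mitophagy. The kinase PINK1 collects on damaged mitochondria and starts their tagging with ubiquitin, whereas BNIP3L (also called NIX) and FUNDC1 sit in the outer membrane and bind the autophagosome protein LC3 directly, and prohibitin 2 binds LC3 from the inner membrane. Cardiomyocytes are among the cells richest in mitochondria, and they depend on this turnover throughout life.

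The libraries held 1237675 to 4738307 counts, and TMM factors ran from 0.613 to 1.54. Cardiac identity was checked with 10 cardiomyocyte marker genes, whose summed level was 69011 to 82812 CPM in sham and 2235 to 26949 CPM in the IZ. IZ replicate 1 gave the 26949, while the other 8 IZ libraries reached at most 5480 CPM, so the log2 fold changes of the members, the ratios and the list medians are also given without that library. Summed fibroblast markers (8 genes) went from 1541 to 2981 CPM in sham to 12685 to 20695 CPM in the IZ, and macrophage and monocyte markers (7 genes) from 346 to 503 CPM to 1893 to 5139 CPM. In the test used below, 10 of 10 cardiomyocyte markers were lower, 7 of 8 fibroblast markers and 7 of 7 macrophage markers were higher, and 2 of 6 endothelial markers were lower. None of these lists had a marker at 0 throughout a group. Neutrophil markers (4 genes) summed to 3.85 to 11.7 CPM in sham and 14.9 to 210 CPM in the IZ. In bulk tissue, fewer cells of a type cannot be told apart from less RNA per cell, and the part of this shift in cell types in the results below was not tested beyond the within-IZ relations given at the end.

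Promoter sequences are shown first for the members whose core promoter held a perfect match to a motif linked with nuclear control of mitochondrial genes, since factors that read such letters are known to act on nuclear genes of mitochondria. Of the 10 members, 9 had a promoter in the RefSeq table (GRCm38.p6), and Bnip3l had none. The 250 bases before each start were searched on both strands for NRF1 (GCGC, any base, TGCGC), ETS/NRF2 (CCGGAAGT), ERR (TNAAGGTCA) and the E-box (CACGTG). The letters GCGTG, a form of the hypoxia response core, were searched for as well. The 100 bases before the start follow, 5′ to 3′ on the gene's strand, with the NRF1 or ETS match in capitals.
Mfn1, chr3:32529382-32529481, + strand: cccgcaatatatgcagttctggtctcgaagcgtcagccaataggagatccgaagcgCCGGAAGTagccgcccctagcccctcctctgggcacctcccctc
Opa1, chr16:29579234-29579333, + strand: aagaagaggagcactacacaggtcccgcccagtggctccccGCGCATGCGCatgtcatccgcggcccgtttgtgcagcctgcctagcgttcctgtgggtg
Fis1, chr5:136953175-136953274, + strand: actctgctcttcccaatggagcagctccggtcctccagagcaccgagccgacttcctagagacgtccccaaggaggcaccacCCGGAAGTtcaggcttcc
Pink1, chr4:138326297-138326396, - strand: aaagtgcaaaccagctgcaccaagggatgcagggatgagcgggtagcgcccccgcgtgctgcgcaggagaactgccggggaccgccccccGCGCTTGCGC
Phb2, chr6:124712189-124712288, + strand: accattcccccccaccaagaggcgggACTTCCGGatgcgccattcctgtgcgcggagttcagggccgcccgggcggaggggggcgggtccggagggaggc
The NRF1 match began 59 bases before the start in Opa1 and 10 bases before it in Pink1, and 3.74% of 32851 promoters held one. The ETS match began 44 bases before the start in Mfn1, 18 in Fis1, and 233 and 74 in Phb2, against 2.88% of promoters. The letters GCGTG, present in 28.2% of promoters, were found at 171 bases in Mfn2 and at 47 in Pink1. Other forms of the hypoxia response core were not searched for. None of the 9 promoters held the ERR letters (1.14% of all promoters) or the E-box (6.02%). A match describes letters in this window and is not evidence of binding in these hearts, and the matched members included genes with both the largest and the smallest decreases given below.

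Of the 3 groups of members, the fusion genes had the lowest median log2 fold change in the IZ (-2.62, and -3.02 without IZ replicate 1), and Mfn1 fell most of the 10. Mfn1 (ENSMUSG00000027668, chr3:32529465-32579239) lay between 174 and 207 CPM in the sham libraries, with a median of 197. In the IZ it ranged from 12.5 to 74.6 CPM with a median of 19.8. All 9 IZ libraries were below every sham library, and the 74.6 came from IZ replicate 1, the next highest being 21.6. Group means were 192 ± 13.1 CPM (SD, n = 8) and 24.7 ± 18.9 CPM (SD, n = 9), a log2 fold change of -2.96 ± 0.26 (SE; adjusted p = 7.22e-10), or 7.77-fold lower. Without IZ replicate 1 the log2 fold change was -3.40 and the IZ mean 18.5 ± 2.99 CPM (n = 8).

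Mfn2, the second mitofusin, which also tethers mitochondria to the endoplasmic reticulum (ENSMUSG00000029020, chr4:147873599-147904704), ranged from 434 to 573 CPM in sham with a median of 536. The IZ range was 48.3 to 230 CPM with a median of 68.3. The groups did not overlap, and IZ replicate 1 again stood above the other 8, which reached 92.3 CPM at most. The log2 fold change was -2.62 ± 0.25 (adjusted p = 2.78e-09), or 6.15-fold lower, and -3.02 without that library. Opa1 (ENSMUSG00000038084, chr16:29579334-29654884) ranged from 74.4 to 119 CPM in sham (median 93.8) and from 20.5 to 41.3 CPM in the IZ (median 22.8). Again no IZ library reached the lowest sham library. Opa1 fell by 1.97 on the log2 scale (SE 0.14, adjusted p = 2.78e-11), or 3.90-fold, and by 2.12 without IZ replicate 1.

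All 3 fission members were called lower as well, though Fis1 and Mff took the opposite sign when libraries were scaled by total counts alone. Dnm1l (ENSMUSG00000022789, chr16:16312230-16358959) ranged from 80.5 to 118 CPM in sham (median 95.7) and from 33.1 to 46.5 CPM in the IZ (median 39.6). The groups did not overlap, and IZ replicate 1 lay inside the range of the other IZ libraries. The log2 fold change was -1.28 ± 0.10 (adjusted p = 2.06e-10), or 2.43-fold lower, and -1.33 without IZ replicate 1. Mff (ENSMUSG00000026150, chr1:82724890-82752394), a receptor for DRP1, ranged from 72.8 to 108 CPM in sham (median 101) and from 42.8 to 73.2 CPM in the IZ (median 54.4). Only IZ replicate 1, with 73.2 CPM, entered the sham range, and the other 8 lay below it. Mff fell by 0.78 (SE 0.11, adjusted p = 1.18e-06), and by 0.88 without that library.

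Fis1 (ENSMUSG00000019054, chr5:136953275-136966234), a small tail-anchored protein of the outer membrane, had the least change of the 8 members called lower. It ranged from 38.9 to 68.2 CPM in sham (median 61.7) and from 34.2 to 68.9 CPM in the IZ (median 45.3). The groups overlapped over almost their whole range, since sham replicate 8 held the 38.9 and IZ replicate 1 the 68.9. The log2 fold change was -0.33 ± 0.13 (adjusted p = 0.0225). The call was lost without IZ replicate 4 (adjusted p = 0.0529), without IZ replicate 7 (0.0541), with upper quartile scaling (0.116) and with no filter on low counts (0.109). The lowest adjusted p of the 26 alternatives, 1.72e-06, came with total counts alone, where Fis1 was called higher (0.74). Without IZ replicate 1 the log2 fold change was -0.45.

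**Figure D1:**
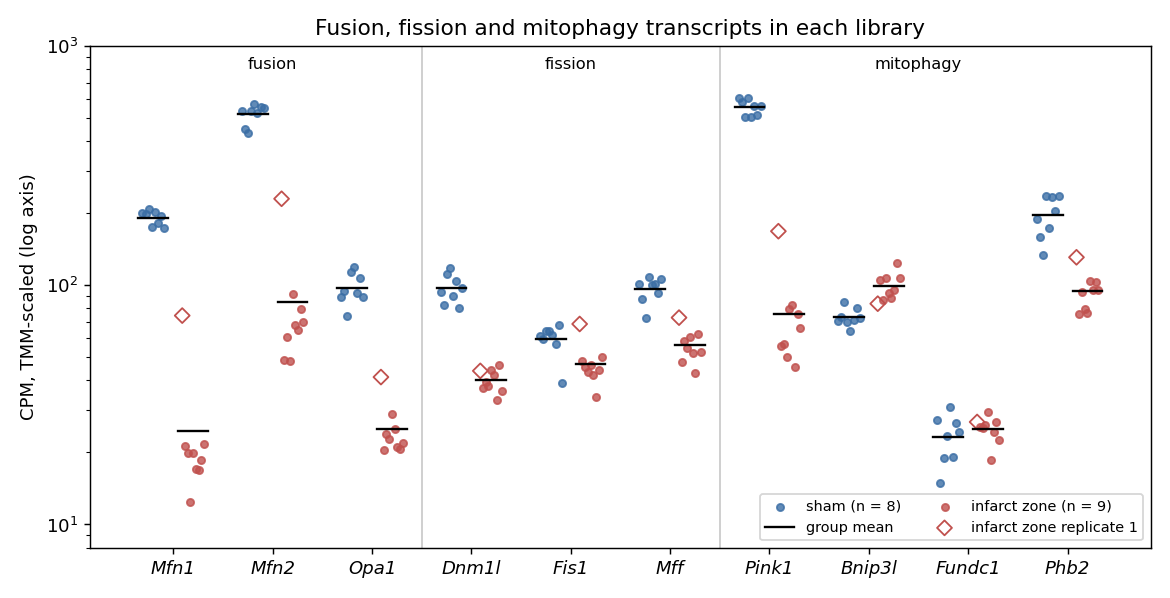
CPM after TMM scaling (log axis) of the 10 genes in 8 sham and 9 infarct zone libraries, 1 point per library, with the group mean as a bar and infarct zone replicate 1 as an open diamond. The groups do not overlap for Mfn1, Mfn2, Opa1, Dnm1l, Pink1 and Phb2, and Bnip3l is the one gene with 8 of 9 infarct zone libraries above all sham libraries.

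The 4 mitophagy members did not move together. Pink1 (ENSMUSG00000028756, chr4:138313409-138326307) ranged from 506 to 607 CPM in sham (median 562) and from 45.6 to 168 CPM in the IZ (median 66.2). All 9 IZ libraries were far below the sham range, and IZ replicate 1 was the highest of them, with 82.4 CPM the next. The means were 556 ± 41.5 CPM (SD, n = 8) and 75.6 ± 37.1 CPM (SD, n = 9), and the log2 fold change was -2.88 ± 0.21 (adjusted p = 3.97e-11), or 7.36-fold lower. Leaving out IZ replicate 1 gave -3.16. Phb2 (ENSMUSG00000004264, chr6:124712336-124716950) ranged from 134 to 237 CPM in sham (median 197) and from 76.1 to 131 CPM in the IZ (median 95.4). The groups did not overlap, although the highest IZ library and the lowest sham library were close together. Phb2 fell by 1.05 (SE 0.14, adjusted p = 3.32e-07), or 2.07-fold, and by 1.16 without IZ replicate 1, a change that was gone under total counts alone (0.02).

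Bnip3l was the one member that rose. This receptor gene (ENSMUSG00000022051, chr14:66985239-67008877) ranged from 64.2 to 84.7 CPM in sham (median 72.0) and from 83.7 to 123 CPM in the IZ (median 95.4). In 8 of the 9 IZ libraries it was above every sham library, and the ninth was IZ replicate 1. The log2 fold change was 0.43 ± 0.10 (adjusted p = 5.94e-04), or 1.34-fold higher, and 0.42 without IZ replicate 1, and the gene was called higher in all 26 alternative fits. Fundc1 (ENSMUSG00000025040, chrX:17556564-17572325) ranged from 14.9 to 31.1 CPM in sham (median 23.9) and from 18.5 to 29.5 CPM in the IZ (median 25.6). No IZ library lay outside the sham range. Its log2 fold change of 0.09 (95% interval -0.18 to 0.36, adjusted p = 0.569) did not pass the test and was 0.04 without IZ replicate 1. With 22 to 69 counts in the sham libraries and 45 to 184 in the IZ it was the least sampled of the 10.

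By edgeR's quasi-likelihood test (Benjamini-Hochberg adjusted p under 0.05), 8 of the 10 members were lower and 1 was higher. Of all 12301 genes tested, 33.1% were called lower and 36.3% higher. The 6 members with every IZ library below every sham library compare with 16.5% of all genes. The members' median log2 fold change was -1.16, and -1.24 without IZ replicate 1, beside a median of 0.05 for all genes tested. Mfn1, Pink1 and Mfn2 stood low in the whole table, with 2.51%, 2.89% and 4.02% of tested genes below them, followed by Opa1 with 8.09%, Dnm1l with 14.4%, Phb2 with 17.6% and Mff with 22.4%. Fis1 with 35.2%, Fundc1 with 51.4% and Bnip3l with 64.3% lay between the quartiles of all genes.

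**Figure D2:**
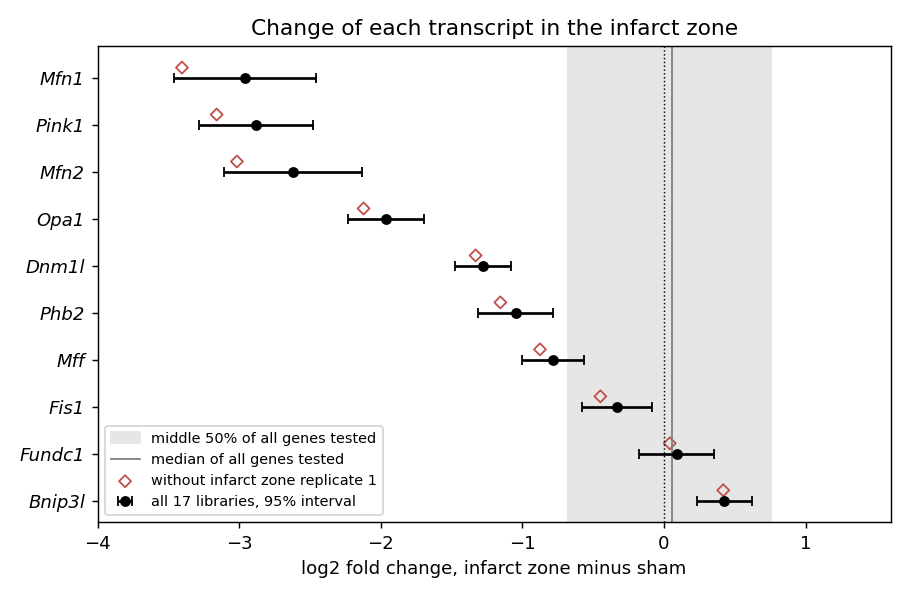
Log2 fold change, infarct zone minus sham, of each gene with its 95% interval (filled points, all 17 libraries) and without infarct zone replicate 1 (open diamonds), over the middle 50% of all genes tested (shaded). Mfn1, Pink1, Mfn2 and Opa1 lie furthest to the left, and the intervals of Fis1, Fundc1 and Bnip3l lie inside the shaded band. When libraries were scaled by total counts alone, Fis1, Mff and Phb2 changed sign.

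The directions of the smaller changes depend on the scaling. IZ libraries had the higher TMM factors, and scaling by total counts alone moved the median log2 fold change of all genes up by 1.09 and the share of higher calls from 52.3% to 85.8%. On that scale 4 members were called lower (Mfn1, Mfn2, Opa1 and Pink1) and 4 higher (Fis1, Mff, Bnip3l and Fundc1), Dnm1l missed the threshold (-0.20, adjusted p = 0.110), and Fis1 (0.74), Mff (0.28) and Phb2 (0.02) changed sign, though all 4 values stayed below the median of all genes on that scale, 1.14.

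Ratios between the members of a pair within a library do not depend on scaling and compare the balance directly. They are log2 ratios of counts with 0.5 added, tested by an exact two-sided permutation of the 17 libraries (24310 splits) and adjusted over 6 pairs. The pairs were chosen with earlier results of these data known, a choice that the p-values do not allow for. Opa1 fell less than Mfn2, so that Opa1/Mfn2 went from -2.42 ± 0.16 in sham to -1.61 ± 0.41 in the IZ (SD, n = 8 and 9, adjusted exact p = 0.00115). In 8 of 9 IZ libraries this ratio was above every sham library, and IZ replicate 1, at -2.47, lay within the sham range. Dnm1l/Opa1, the fission dynamin over the inner membrane fusion GTPase, rose from -0.00 ± 0.33 to 0.70 ± 0.28 (adjusted exact p = 0.00115), again in 8 of 9 libraries above all sham libraries. The ratio of the mitofusins Mfn1/Mfn2 went from -1.44 ± 0.21 to -1.81 ± 0.31, a difference of -0.37 (adjusted exact p = 0.0123), and 3 IZ libraries lay inside the sham range. For the outer membrane adaptors, Fis1/Mff rose from -0.70 ± 0.36 to -0.26 ± 0.17 (adjusted exact p = 0.00267), with only 3 of 9 IZ libraries above the sham range. Without IZ replicate 1 the differences were 0.92 for Opa1/Mfn2, 0.78 for Dnm1l/Opa1, -0.40 for Mfn1/Mfn2 and 0.42 for Fis1/Mff.

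The widest shift was between the paired receptors BNIP3 and NIX, related proteins of one family. Bnip3/Bnip3l was between -0.14 and 0.52 in sham and between -2.71 and -0.46 in the IZ, so the groups did not overlap, and the mean difference was -1.96 (adjusted exact p = 4.94e-04), or -2.13 without IZ replicate 1. Bnip3 itself went from 84.1 ± 14.2 to 30.3 ± 13.0 CPM (log2 fold change -1.46 ± 0.18, adjusted p = 2.20e-07), opposite in direction to Bnip3l. Within the prohibitin pair, whose proteins assemble into one ring complex of the inner membrane, Phb/Phb2 went from -0.51 ± 0.28 to -1.39 ± 0.49 (adjusted exact p = 0.00130), below all sham libraries in 7 of 9, a difference of -0.88, or -0.98 without IZ replicate 1. Phb fell by 1.82 on the log2 scale (adjusted p = 3.19e-08). Phb and Bnip3 each have near-identical copies elsewhere in the annotated transcripts at their 3′ ends, so their counts are uncertain, whereas none of the 10 members has such a copy.

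**Figure D3:**
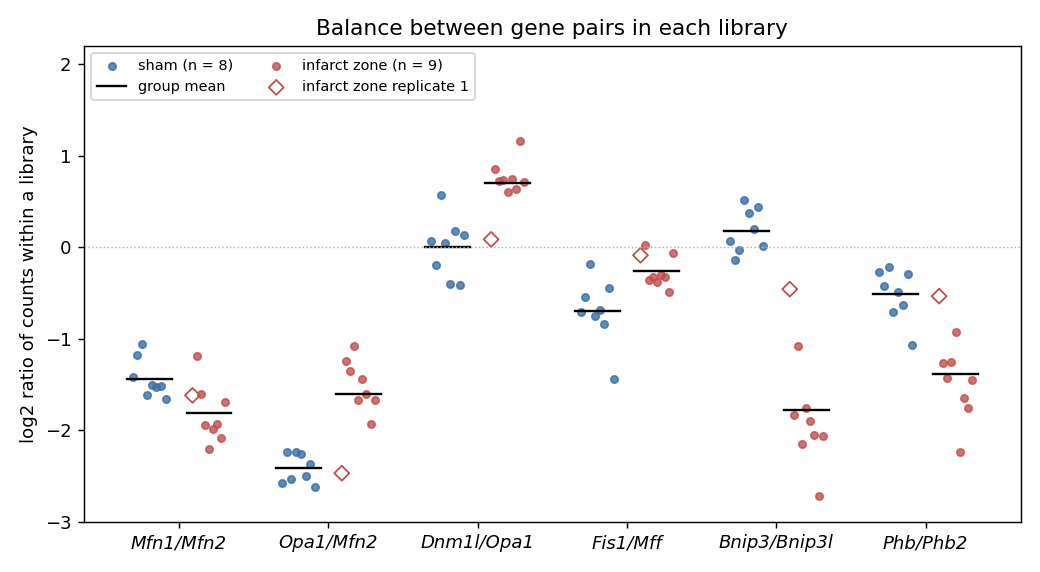
Log2 ratio of counts within each library for 6 gene pairs in 8 sham and 9 infarct zone libraries, with group means as bars and infarct zone replicate 1 as an open diamond. Bnip3/Bnip3l shows no overlap between the groups, and infarct zone replicate 1 lies at or near the sham values for Opa1/Mfn2, Dnm1l/Opa1 and Phb/Phb2.

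Genes that act beside the members were followed in lists. Their counts and medians come from TMM scaling and were not repeated under total counts alone. That scaling moved the median log2 fold change of all genes up by 1.09, so the direction of smaller decreases in the lists depends on the scaling. Of 12 genes for inner membrane shape and OPA1 processing, 11 were lower, 1 was not called and none was higher, with a median of -1.60. The lowest was Chchd3 (-2.30, 372 to 75.4 CPM), a subunit of the MICOS complex at cristae junctions, and Chchd6, another subunit, showed the least change among those called (-0.62, with the opposite sign under total counts). Oma1, the stress-activated protease that cleaves OPA1, fell by 1.59 (SE 0.20, adjusted p = 2.66e-07), with all 9 IZ libraries below sham. The other OPA1 protease, Yme1l1, had a log2 fold change of -0.04 (77.3 and 75.7 CPM, adjusted p = 0.761). Oma1 and Yme1l1 were picked out after their values were seen.

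Of 12 fission adaptors and modulators, 10 could be tested: 7 were lower and 2 higher, with a median of -0.70. Mtfp1, an inner membrane protein that promotes division, showed the lowest value of any listed pathway gene, from 185 ± 21.2 to 11.1 ± 17.3 CPM (log2 fold change -4.12 ± 0.46, adjusted p = 4.07e-08; -5.28 without IZ replicate 1). Mief2, an adaptor for DRP1, fell by 1.65 (adjusted p = 1.68e-08). The 2 that rose, Spire1 (1.40, adjusted p = 7.91e-06) and the formin Inf2 (1.25, adjusted p = 3.39e-05), encode actin nucleators that act at the contacts between mitochondria and the endoplasmic reticulum. A gene on the opposite strand overlaps Spire1 and had up to 138 counts in a library, more than the 95 of Spire1 itself, so the Spire1 value is uncertain. Dnm2, the general endocytic dynamin, had a log2 fold change of -0.04 (adjusted p = 0.740). Mief2, Inf2 and Dnm2 were picked out after their values were seen.

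Of 11 genes that act with PINK1, 8 were lower and 2 higher, with a median of -0.76. Rhot2, which links mitochondria to microtubule motors, fell by 2.69 (adjusted p = 4.23e-11). The other decreases in this list were smaller than 1.09, the amount by which total counts alone moved the median of all genes. The deubiquitinase gene Usp8 rose by 0.72 (adjusted p = 2.01e-05) and the intermembrane space protease gene Htra2 by 0.52 (adjusted p = 6.02e-04; 0.35 and adjusted p = 0.0862 in thinned counts), while Usp30, whose product removes ubiquitin from mitochondria, had a log2 fold change of -0.20 (adjusted p = 0.533). Usp8, Htra2 and Usp30 overlap genes on the opposite strand, and Htra2 and Usp30 were picked out after their values were seen. Genes over Usp8 and Htra2 had up to 408 and 1292 counts in a library. Usp8 and Htra2 themselves had at most 258 and 332, so their values are uncertain.

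Among other mitophagy receptors 3 of 5 tested genes were lower, none was higher, and the median was -1.26. Besides Bnip3 these were Nipsnap2, an outer membrane signal for mitophagy (560 ± 89.0 to 59.2 ± 41.5 CPM, log2 fold change -3.24 ± 0.26, adjusted p = 1.80e-10), and Bcl2l13 (-1.26, adjusted p = 3.49e-05), which was no longer called under total counts alone (-0.20, adjusted p = 0.326). Fkbp8 (0.20, adjusted p = 0.119) and Ambra1 (-0.16, adjusted p = 0.464), picked out after their values were seen, did not pass the test. Fkbp8 was called higher with upper quartile scaling (0.31, adjusted p = 0.0187) and without IZ replicate 7 (0.26, adjusted p = 0.0386). Under total counts alone both were called higher (1.29, adjusted p = 5.64e-10, and 0.94, adjusted p = 4.08e-04). Of 6 cargo adaptor genes, 3 were lower and 1 higher. Optn, encoding optineurin, an adaptor that binds ubiquitin on mitochondria, went from 58.3 ± 13.8 to 11.4 ± 4.62 CPM (-2.38 ± 0.20, adjusted p = 3.12e-10), and Tbk1, the kinase of optineurin, rose by 0.46 (adjusted p = 0.00943), a call that was lost in thinned counts (0.28, adjusted p = 0.213). Sqstm1, encoding p62, had values of 232 and 199 CPM (-0.23 ± 0.11, adjusted p = 0.0741). It was called lower without IZ replicate 1 (-0.33, adjusted p = 0.0016), without sham replicate 2 (-0.27, adjusted p = 0.0432) and by the DESeq2 Wald test (-0.23, adjusted p = 0.0342). Under total counts alone it was called higher (0.84, adjusted p = 8.72e-08). Calcoco1 (-1.64) and Nbr1 (-0.61, with the opposite sign under total counts) were lower, and Tax1bp1 (-0.18, adjusted p = 0.136) was not called, all 3 picked out after their values were seen.

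Of 31 genes of the general autophagy machinery, 13 were lower, 6 higher and 12 not called, with a median of -0.34. Map1lc3a, encoding an LC3 protein of the autophagosome membrane, had the lowest value, from 637 ± 71.1 to 107 ± 78.8 CPM (log2 fold change -2.58 ± 0.27, adjusted p = 1.04e-08). Its paralogue Map1lc3b went from 177 to 120 CPM (-0.56 ± 0.12, adjusted p = 2.38e-04), with the opposite sign under total counts (0.51). Vmp1, encoding an endoplasmic reticulum protein needed to form autophagosomes, rose from 78.0 ± 23.9 to 220 ± 107 CPM (1.49 ± 0.24, adjusted p = 6.23e-06). Another annotated gene overlaps it on the same strand and had up to 8686 counts in a library, against at most 1734 for Vmp1. The Vmp1 value is therefore uncertain. Map1lc3b and Fkbp8 have near-identical copies at their 3′ ends, and Map1lc3b, Fkbp8, Bcl2l13 and Dnm2 overlap genes on the opposite strand.

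Genes for import and the outer membrane, together with citrate synthase as a marker of mitochondrial content, give the background of the organelle itself. All 12 were lower, with a median of -1.34, from Cs (-2.55, adjusted p = 1.57e-10) to the import receptor gene Tomm20 (-0.32, adjusted p = 0.0172, with the opposite sign under total counts). All 20 nuclear genes of oxidative phosphorylation were lower with a median of -2.75, from Cyc1 (-3.08) to Cox7c (-2.39). Cox7c and Tomm20 have near-identical copies, those of Cox7c with up to 1363 counts in a library against at most 1192 for Cox7c, so the Cox7c value is uncertain. The fusion members' median of -2.62 stood close to that of oxidative phosphorylation, and the fission members' median of -0.78 and the mitophagy members' of -0.48 were nearer to 0. These are medians of 3, 3 and 4 genes, which ran from -2.96 to -1.97 for fusion, -1.28 to -0.33 for fission and -2.88 to 0.43 for mitophagy. Cardiomyocyte markers had a median of -3.62. Without IZ replicate 1 the medians were -3.08 for oxidative phosphorylation, -1.49 for import and the outer membrane, -0.88 for the fission members, -0.56 for the mitophagy members and -4.41 for the cardiomyocyte markers. Over the 75 tested genes of the 6 lists before these (inner membrane, fission adaptors, PINK1, receptors, cargo adaptors and autophagy machinery), 45 were lower and 11 higher, with a median of -0.53, or -0.58 without IZ replicate 1. In the order given, the medians of these lists without that library were -1.77, -0.77, -0.85, -1.50, -0.49 and -0.35.

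**Figure D4:**
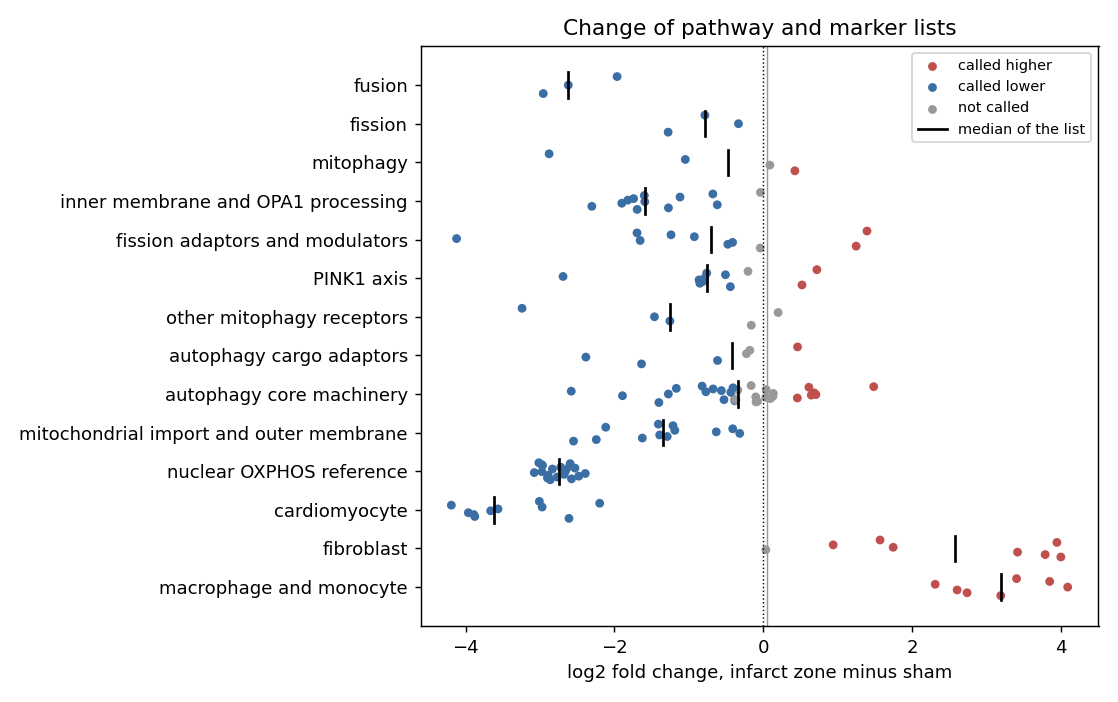
Log2 fold change, infarct zone minus sham, of every tested gene in the member groups, pathway lists and 3 cell type marker lists, coloured by call, with the list median as a black bar. All 20 oxidative phosphorylation genes and all 10 cardiomyocyte markers lie left of 0, while the autophagy lists spread to both sides. Chchd6, Nbr1, Map1lc3b and Tomm20 are among those that changed sign under total counts alone.

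Within the IZ, the members were compared with how much cardiomyocyte marker RNA each library held (log2 of the summed CPM of the 10 markers). Over 9 libraries 7 of 10 members had an adjusted exact permutation p under 0.05 for Pearson's r (362880 pairings, adjusted over 10 genes), but the level in IZ replicate 1 is a point apart. The share of all tested genes with such a relation was not computed, so this count shows nothing particular to the members. Mfn2 followed the markers most closely: r was 0.99 with all 9 libraries (adjusted exact p = 1.65e-04; Spearman's rho 0.97, adjusted exact p = 0.00165). Without IZ replicate 1 it was 0.94 (n = 8, adjusted exact p = 0.00372), and without the 2 libraries farthest from the median it was 0.91 (n = 7, adjusted exact p = 0.0159). Spearman's rho for Mfn2 was 0.95 (adjusted exact p = 0.0114) and 0.93 (adjusted exact p = 0.0675) in these subsets, so the second missed the threshold. For Pink1 r was 0.94 over 9 libraries (adjusted exact p = 0.00747; rho 0.83, adjusted exact p = 0.0413), 0.79 without IZ replicate 1 (adjusted exact p = 0.135) and 0.75 without the 2 farthest (adjusted exact p = 0.245). For Mfn1, Opa1, Fis1, Mff and Phb2, r was 0.74 to 0.93 over 9 libraries and 0.29 to 0.56 without IZ replicate 1, where none passed the test, so these relations rest on that library. The relations also depend on the scaling. With total count CPM over all 9 libraries, r was lower for each of these genes and below 0 for Dnm1l and Fundc1, as given further below. Their Spearman's rho over 9 libraries was 0.53 to 0.65 (adjusted exact p = 0.184 for each). Dnm1l (r = 0.52, rho 0.55, adjusted exact p = 0.183 and 0.184), Fundc1 (0.23, rho 0.30, adjusted exact p = 0.457 and 0.437) and Bnip3l (-0.40, rho -0.38, adjusted exact p = 0.324 and 0.347) did not pass with all 9, and the r of Bnip3l was 0.08 without IZ replicate 1.

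**Figure D5:**
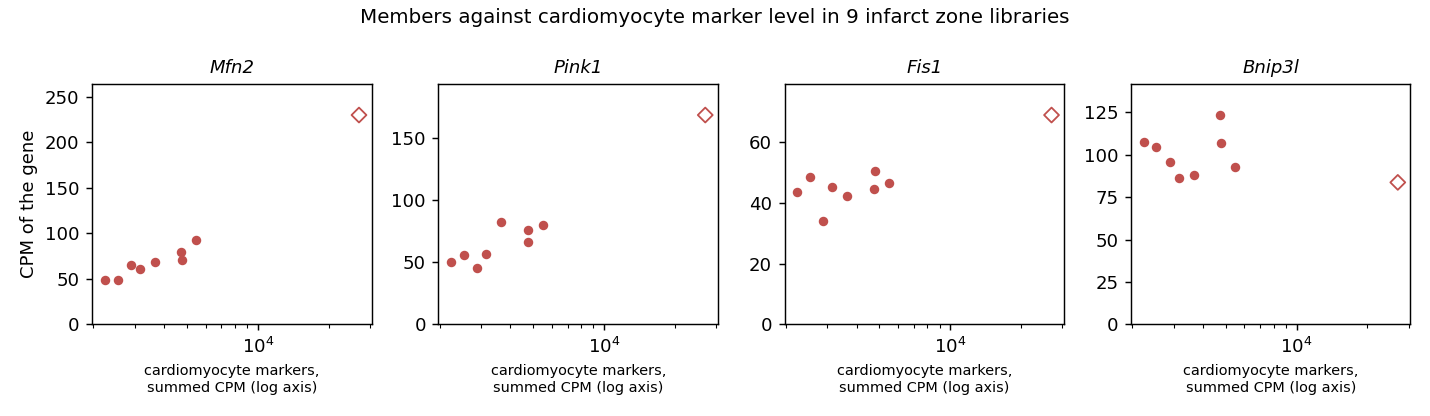
CPM of Mfn2, Pink1, Fis1 and Bnip3l (linear axis) against the summed CPM of 10 cardiomyocyte markers (log axis) in the 9 infarct zone libraries, with replicate 1 as an open diamond. Mfn2 rises with the markers also among the other 8 libraries, whereas for Fis1 the relation rests on replicate 1 and was weaker with total count CPM.

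For each member, the gene outside the list whose level was most alike over the 17 libraries, after each group's mean was taken off, was found among 9345 genes. These correlations are descriptions over libraries that share their depth and makeup. Each is the highest of many, so selection alone can give a high r. The r without IZ replicate 1 is for the gene already chosen with it, and is no separate check. The nearest to Mfn2 was Chchd10, encoding another mitochondrial protein of the cristae (r = 0.98, and 0.94 without IZ replicate 1). The nearest to Mfn1 was Got1, encoding the cytosolic aspartate aminotransferase (0.97 and 0.84), and to Pink1 it was Myo18b, encoding an unconventional myosin of striated muscle (0.97 and 0.91). Opa1 was nearest to Hipk3 (0.92 and 0.84), Phb2 to Usp15 (0.91 and 0.88), Fis1 to the tetraspanin gene Cd81 (0.90 and 0.85) and Mff to Mrpl4, encoding a mitochondrial ribosomal protein (0.89 and 0.86). Fundc1 was nearest to Rab8a (0.82 and 0.82), Dnm1l to Kansl3 (0.79 and 0.79) and Bnip3l to the ribosomal protein gene Rpl35a (0.76 and 0.71), the lowest of the 10.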

How the data were processed

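3′ end libraries (MACE-Seq) with unique molecular identifiers were made from total RNA of 8 sham and 9 IZ samples, 1 per mouse. Per the labels, bcl2fastq, Cutadapt 4.6, Bowtie2, HTSeq and DESeq2 were used with genome build mm10. The deposited values are raw counts per gene, not normalised by the authors. The annotation release, strand setting and handling of multi-mapped reads are not given in the sources used here. Of the 31647 identifiers, 31521 matched GENCODE M21 (GRCm38), from which symbols and coordinates were taken, and 35 features are merged groups of overlapping genes.

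Counts were filtered with filterByExpr and scaled by TMM, and IZ was compared with sham in edgeR 4.0.16 (R 4.3.3) by glmQLFit and glmQLFTest over all genes, with Benjamini-Hochberg adjustment and a threshold of 0.05. No covariate was used. The adjusted p-values in the report come from this test unless called exact. Intervals are 95%. The test was checked on simulated counts in which few genes changed, as many up as down. That check does not cover a shift in library composition as wide as the one here. The replicate numbers 1 to 8 name different animals and were not used as a block. All 136 pairs of libraries differed by more than counting noise (chi-square per degree of freedom 2.56 to 281). Exact permutation tests used SciPy 1.17.1, near-identical 3′ ends (at least 100 aligned bases at 95% identity within the last 500) were sought with BLAST 2.17.0, and levels used for likeness were log2 CPM with a prior count of 1 in genes of at least 10 CPM on average. Alternatives were other scalings and filters, thinned counts, fits without mitochondrially encoded genes, DESeq2 1.42.0, a replicate block and leaving out each library. The members, lists and ratios were chosen with earlier results of these data known. Named genes were all members, the called gene with the highest and lowest change in each pathway list, all genes of the ratios, Sqstm1 and Map1lc3b, and those said to be picked out after their values were seen. 1 further gene of that rule is not reported here.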

Additional observations from a re-analysis of the deposited data

Results flagged for a closer look

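Among 32 groups of values checked for a sample apart from the rest by Dixon's criterion, 7 had one, and 6 of these were IZ replicate 1. Chance alone flags about 1 in 20 such groups. IZ replicate 1 had 74.6 CPM of Mfn1 against 12.5 to 21.6 in the other 8 IZ libraries, and 230 CPM of Mfn2 against 48.3 to 92.3. It had 41.3 CPM of Opa1 against 20.5 to 28.9, and 168 CPM of Pink1 against 45.6 to 82.4. It also had 68.9 CPM of Fis1 against 34.2 to 50.3, and 131 CPM of Phb2 against 76.1 to 104. In the same library the cardiomyocyte markers summed to 26949 CPM against at most 5480 in the others. The seventh was sham replicate 8, with 38.9 CPM of Fis1 against 56.6 to 68.2 in the other sham libraries. No cause was tested for any of these values.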

How the results depend on the processing

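Of 260 alternative values of the members' log2 fold changes, 250 kept their direction and their side of the threshold, as did all 126 of the ratios. Scaling by total counts alone left 4 members called lower and 4 higher, and gave the opposite sign for Fis1 (0.74), Mff (0.28), Phb2 (0.017), Chchd6 (0.45), Tomm20 (0.77), Sqstm1 (0.84), Map1lc3b (0.51), Yme1l1 (1.05), Dnm2 (1.04), Usp30 (0.86), Ambra1 (0.94), Nbr1 (0.46), Tax1bp1 (0.91), Gabarapl1 (0.65), Gabarapl2 (0.31), Atg12 (1.02) and Atg16l1 (0.55). These sign changes are given only for genes named in this report. Of the named genes that kept their sign, Dnm1l, Bcl2l13, Ulk1 and Atg10 lost their call under that scaling, and Fundc1 and Fkbp8 became called higher. Genes of the lists that are not named are left out, and some of them also lost their call in an alternative. Among the named genes, thinning ended the calls of Tbk1, Tomm20, Htra2, Atg3 and Atg16l1. Other sign changes were of values near 0: Fundc1 when thinned (-0.027), and Yme1l1 and Dnm2 with upper quartile scaling (0.072 and 0.071, with Atg12 at 0.036), no filter (0.014 and 0.018), thinning (0.11 and 0.32) and leaving out 1 library (-0.088 to 0.0091 and -0.097 to 0.014). The number of genes called was 5239 with a minimum mean of 50 counts, where 6734 genes were tested, 10727 with total counts and 10295 with DESeq2, against 8544, and 7962 to 8614 when 1 library was left out. Members called lower were 7 to 8 and higher 1 without any 1 library.

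For the relations with the cardiomyocyte markers, r with total count CPM was 0.89 for Mfn1, 0.62 for Opa1, -0.46 for Dnm1l, 0.32 for Fis1, 0.090 for Mff, -0.55 for Fundc1 and 0.13 for Phb2. Without the 2 farthest libraries it was 0.14 for Mfn1, 0.50 for Opa1, 0.36 for Fis1, 0.72 for Mff, 0.75 for Pink1, 0.27 for Bnip3l and 0.11 for Phb2. Without IZ replicate 1 it was 0.54, 0.43, 0.32, 0.56, 0.79, 0.081 and 0.29 for the same genes in that order.

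Same-numbered sham and IZ samples did not deviate together (correlations -0.22 to 0.13, and 1 of 8 sham samples correlated best with its own number), so the numbers do not pair the animals. A replicate block over the 8 shared numbers gave 7883 genes called against 8153 in the same samples without it. With the block Tomm20 missed the threshold (-0.25, adjusted p = 0.110) and Yme1l1 was at 0.0045.

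Depth limits the precision of Fundc1 most among the members, with 22 to 69 counts per sham library. P-values of the group comparisons weigh the difference between the groups against the spread between samples within them. Those of the relations with the cardiomyocyte markers use IZ libraries alone.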

Other observations

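The LC3 and GABARAP genes, whose products coat the autophagosome and are bound by the mitophagy receptors, did not change as one family. These genes were picked out after their values were seen. Gabarap rose from 305 ± 62.2 to 491 ± 142 CPM (SD, n = 8 and 9; log2 fold change 0.68 ± 0.18, adjusted p = 0.00141), with 6 of 9 IZ libraries above every sham library. Gabarapl2 went from 52.7 to 31.1 CPM (-0.77, adjusted p = 1.06e-05) and Gabarapl1 from 80.3 to 59.5 CPM (-0.44, adjusted p = 6.42e-04), though both took the opposite sign under total counts (0.31 and 0.65). Map1lc3a, with -2.58, was lower under every alternative tried.

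Genes whose products attach these proteins to lipid moved in both directions, and they too were picked out after their values were seen. Atg7, the activating enzyme, went from 15.3 to 25.3 CPM (0.71 ± 0.12, adjusted p = 1.62e-05), above all sham libraries in all 9. Atg5 went from 15.7 to 24.5 CPM (0.65, adjusted p = 5.34e-04), and Atg3 from 25.1 to 34.2 CPM (0.46, adjusted p = 0.00664; 0.42 and adjusted p = 0.0712 in thinned counts). Atg10 was lower (-1.40, adjusted p = 1.18e-05), though it missed the threshold under total counts alone (-0.34, adjusted p = 0.144). Atg16l1 was lower (-0.53, adjusted p = 0.00145), with the opposite sign under total counts (0.55), and Atg12 was not called (-0.08, adjusted p = 0.639). Ulk1, encoding the initiating kinase, was also picked out after its values were seen. It fell by 1.17 (adjusted p = 4.81e-07), from 40.3 to 18.1 CPM, but was at -0.09 (adjusted p = 0.563) under total counts alone.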
